A study of Anopheles coluzzii and Anopheles merus with 32 samples.

Results

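The difference in gene expression between Anopheles merus and Anopheles coluzzii larvae was described after 6 h of saltwater (SW), in larvae exposed from 66 h after hatching. All libraries labelled with that age and that water were taken, 4 of An. merus and 4 of An. coluzzii, which is 8 of the 32 libraries of the study. Of 11025 gene identifiers, the 10505 with a mean of at least 1 CPM (reads of a gene as a share of its library, with the authors' scaling by trimmed means of M values, TMM) over all libraries were tested, and 520 were below that level. Each library came from a pool of 35 to 50 whole larvae. Both species had been reared in freshwater (FW), and other larvae of the same age spent the 6 h in FW, again as 4 libraries per species. A further 16 libraries of the same design came from larvae exposed from 18 h after hatching. The labels give no salinity for the SW, no strain or colony and no larval sex, and do not state whether the pools of a group were reared apart. The p-values therefore speak of the spread among these libraries, part of which may be technical.

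Both species are malaria vectors of the Anopheles gambiae complex and look alike. The series title sets them against each other as euryhaline and stenohaline, that is, living across a wide or a narrow range of salinity, and An. merus is known for breeding in brackish coastal pools. A mosquito larva in FW gains water and loses salts through its surface, and in water saltier than its blood it faces the opposite. Larvae balance this mainly with the Malpighian tubules, which secrete the primary urine, the rectum, which recovers or secretes ions, and the anal papillae, which take up ions. Because whole larvae were used, fewer cells of a type and less RNA per cell cannot be told apart in any value given here. The deposited table gives identifiers without names, and 0 of them were found in the gene table used here, so genes are given by identifier, no role is stated, and tissue markers and gene families were not analysed here.

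The 4 SW libraries of An. coluzzii held 5732121 to 16453290 reads and the 4 of An. merus 7589872 to 13172773. In FW at 66 h the libraries held 4207326 to 11865110 and 11031968 to 16621515 reads. Libraries of a group differed from each other by a root mean square of 0.287 to 0.541 on the log2 scale, and the lowest correlation between libraries of a group was 0.969 across genes. The 20 most abundant genes took 21.8% to 22.2% of the reads in An. merus in SW and 17.3% to 18.7% in An. coluzzii in SW. The authors' scaling factor averaged 0.692 in An. merus and 0.943 in An. coluzzii in SW, and 0.822 and 0.943 in FW. The factor was thus lowest in An. merus in SW, and the directions given here are measured against the zero line that it draws.

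In SW most genes differed between the species. Of the 10505 genes, 7067 (67.3%) were called at an adjusted p below 0.05 (limma on log2(CPM + 1), Benjamini-Hochberg), 3372 of them higher in An. merus (32.1% of genes tested) and 3695 lower (35.2%). The gap, An. merus minus An. coluzzii, was at least 2-fold for 2658 called genes (25.3%), of which 1085 (10.3%) were higher and 1573 (15%) lower in An. merus. At 4-fold or more there were 176 higher and 386 lower. The median absolute gap over all genes was 0.58 on the log2 scale. For 6526 genes (62.1%) all 4 libraries of one species lay above all 4 of the other.

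The direction of the smaller gaps depended on the scaling. The higher genes made up 47.7% of the calls with the authors' scaling, 51.7% with quantile normalisation and 23.7% when every library was given the same sum. That last scaling moved the median gap of all genes from -0.02 to -0.41 in SW and from 0.06 to -0.12 in FW. A gap of 2-fold or more is wider than this shift of the median.

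The direction of the gap also moved with expression level. Among the 100 most abundant genes over all libraries, 88 were higher and 4 lower in An. merus, with a median gap of 0.71. Among the 900 genes of the next ranks 478 were higher and 133 lower, with a median of 0.37. Among the 3000 genes ranked 1001 to 4000, the counts were 1225 and 777 and the median 0.18. The 6505 least abundant genes went the other way, with 1581 higher, 2781 lower and a median of -0.22. With every library at the same sum the median of each set was lower, at 0.26, -0.07, -0.26 and -0.57 in that order, so the sign for ranks 101 to 4000 flipped while the order of the 4 sets did not. In FW the median gaps of the 4 sets ran in the same order with the authors' scaling, at 0.33, 0.19, 0.12 and -0.01, so the trend is not particular to SW. The ranks use all libraries, among them the SW libraries compared. Levels are per gene and not per length, so long genes rank higher here.

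**Figure D1:**
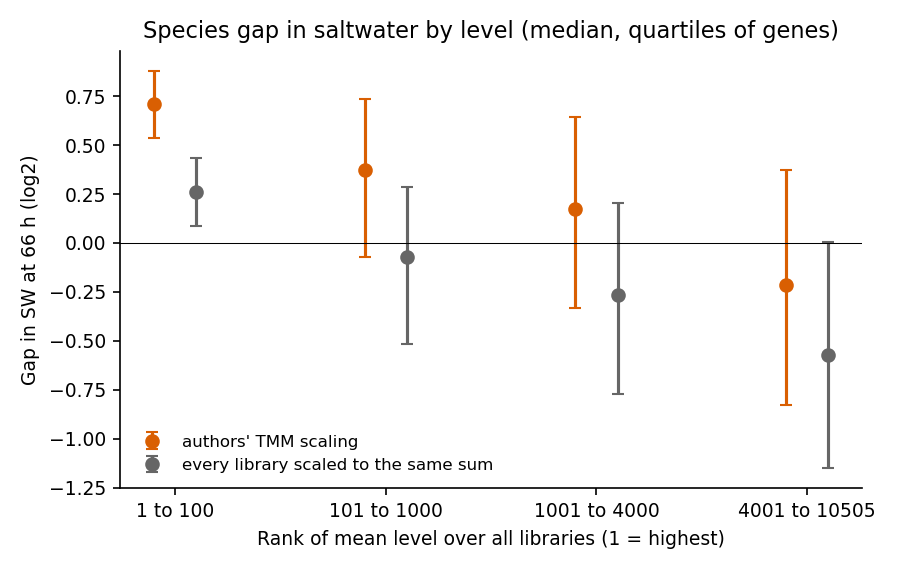
Species gap in SW at 66 h (log2, An. merus minus An. coluzzii, vertical axis) by rank of mean level over all 32 libraries (horizontal axis, rank 1 highest). Points are medians over genes and bars run from the lower to the upper quartile, in orange with the authors' scaling (medians 0.71, 0.37, 0.18 and -0.22) and in grey with every library at the same sum (0.26, -0.07, -0.26 and -0.57).

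The most abundant gene, AGAP010147, which was picked out after its values were seen, is an example of the first set. In SW the An. coluzzii libraries stood at 35080, 34039, 37172 and 37196 CPM, and those of An. merus at 56446, 55318, 56714 and 59238 CPM. No libraries of the species overlapped, and the gap was 0.67 ± 0.09 (log2, SE; limma adjusted p = 1.8e-07). In FW its gap was 0.40 ± 0.09, which the interaction test did not separate from that in SW (difference 0.27 ± 0.13, adjusted p = 0.11). With every library at the same sum its gap in SW was 0.22 (limma adjusted p = 0.016), so its size depends on the scaling. Quantile normalisation gives the top gene of every library the same value, so the gap is 0 by construction there.

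The widest gap in SW belonged to AGAP002360, which was high in An. merus and near the limit of detection in An. coluzzii. Its 4 An. merus libraries stood at 785, 776, 764 and 569 CPM, and its 4 An. coluzzii libraries at 0.557, 0.689, 0.764 and 0.608 CPM, 29 reads in all. The groups lay far apart, by 1105-fold on their means and by 8.76 ± 0.29 on the log2(CPM + 1) scale (SE, limma adjusted p = 2.5e-19). In FW the gap was already 7.30 ± 0.29, with 134 to 242 CPM in An. merus and 0 to 0.354 CPM in An. coluzzii. SW widened it by 1.46 ± 0.42 (interaction, adjusted p = 0.0081), through a change of 1.96 ± 0.29 in An. merus, while the value in An. coluzzii was 0.50 ± 0.29 (adjusted p = 0.42). AGAP010613 followed, with 101 to 169 CPM in An. merus and 0 to 0.934 CPM in An. coluzzii in SW, a gap of 6.59 ± 0.21. Its gap in FW, 6.03 ± 0.21, was not separated from that in SW (interaction 0.56 ± 0.30, adjusted p = 0.15).

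The widest gaps in the other direction were those of AGAP007227 and AGAP007229, whose identifiers lie close together. AGAP007227 stood at 273, 212, 218 and 205 CPM in the An. coluzzii SW libraries and at 0.291, 0.331, 0.555 and 0.545 CPM in those of An. merus, 12 reads in all. The gap was -7.31 ± 0.54 in SW (limma adjusted p = 1.1e-11) and -7.68 ± 0.54 in FW. For AGAP007229 the An. coluzzii libraries stood at 138, 119, 135 and 106 CPM and the An. merus libraries at 0.331 to 0.726 CPM, a gap of -6.34 ± 0.49 in SW and -7.06 ± 0.49 in FW. For both genes the libraries of the species were far from overlapping in either water, and neither gap was separated between waters (interaction adjusted p = 0.75 and 0.45). Among the 8 highest gaps that the naming rule took, the lowest was 4.87, and the 8 lowest ran from -7.31 to -5.90.

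**Figure D2:**
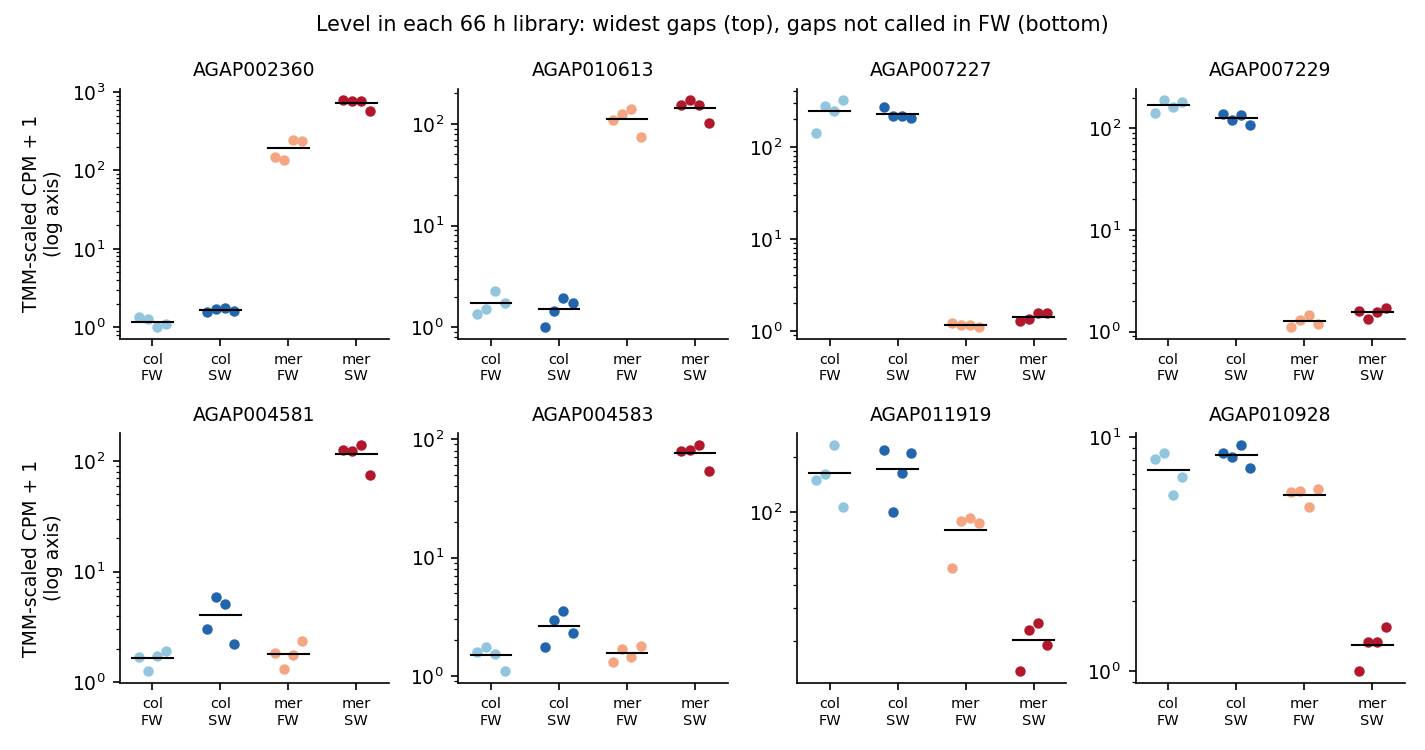
Level (TMM-scaled CPM + 1, log axis) of 8 genes in each 66 h library, by species (col, An. coluzzii; mer, An. merus) and water. Each point is 1 library and the black line is the mean of 4. The top panels show the widest gaps, which are present in both waters, such as AGAP002360 at 0.557 to 0.764 CPM against 569 to 785 CPM in SW. The bottom panels show gaps called in SW and not in FW, where the An. merus SW libraries stand apart from the other 12, although for AGAP011919 the FW libraries of the species also lie apart.

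A gap in SW may be one that the species carry in any water, so each was set beside the same gap in FW, which was measured in other libraries. In FW 5360 genes (51%) were called, 2842 (27.1%) higher and 2518 (24%) lower in An. merus. The gap was at least 2-fold for 1339 of them (12.7%), the median absolute gap was 0.39, and the libraries of the species did not overlap for 43.9% of genes. The gap was larger in SW than in FW for 6918 of the 10505 genes. Across genes, which are not independent replicates and share a library scaling, the gaps in the 2 waters were correlated (Pearson r = 0.78, Spearman rho = 0.69), and 74.8% had the same sign. The direct test of whether a gap differed between waters, the interaction term, gave 3368 genes (32.1%). Of these 1527 (14.5%) had a more positive and 1841 (17.5%) a more negative gap in SW, and for 987 (9.4%) the waters differed by at least 2-fold. With every library at the same sum 21.4% of the called interactions were positive, against 45.3% with the authors' scaling.

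**Figure D3:**
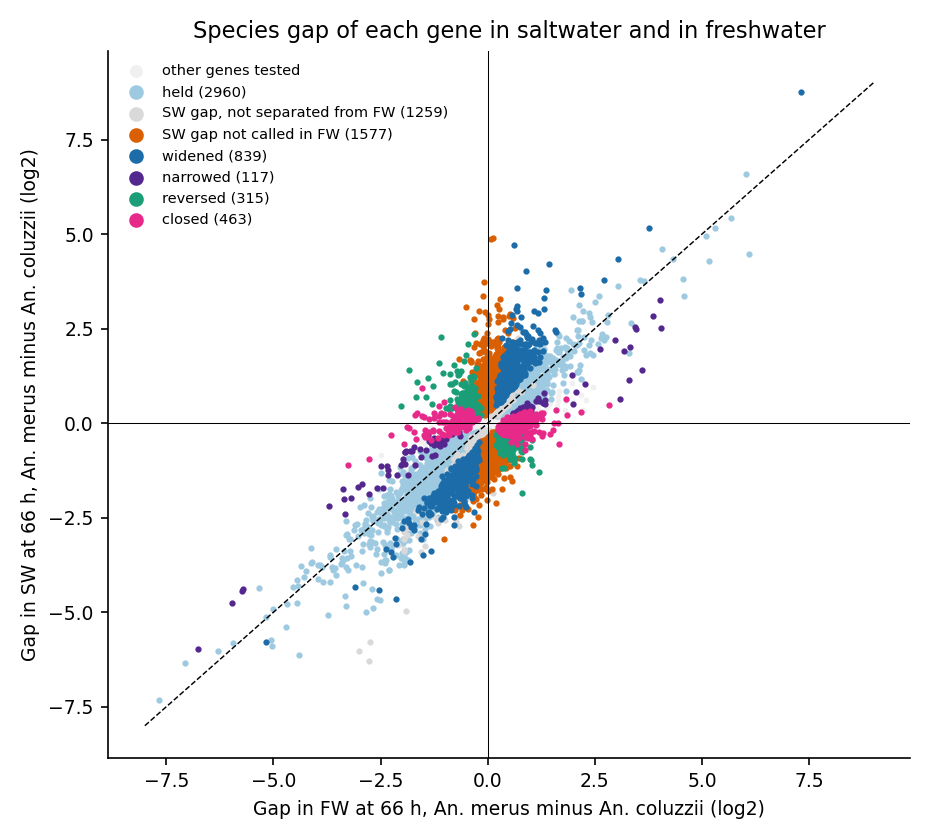
Species gap of each of the 10505 genes in SW (vertical axis) and in FW (horizontal axis) at 66 h, both log2, An. merus minus An. coluzzii. Colours mark the classes defined in the text, with their numbers of genes, and the dashed line marks equal gaps. The 1577 genes called in SW and not in FW, with a called interaction, form a vertical band around 0 on the FW axis.

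The 7067 gaps in SW were sorted by what they were in FW. The largest class, 2960 genes (41.9% of the gaps in SW), had a called gap of the same sign in FW and no called interaction. For 839 (11.9%) the gap was called in both waters with the same sign and was wider in SW. For 117 (1.66%) it was narrower. In 315 (4.46%) it was called in both waters with opposite signs. A further 1577 (22.3%) had no called gap in FW, a called interaction and a larger gap in SW, and these are taken as the gaps absent from FW. The remaining 1259 (17.8%) had no called gap in FW and were not placed in SW alone. For all but 2 of them the interaction was not called, and for those 2 it was called without a larger gap in SW. In addition 463 gaps called in FW were closed in SW, that is, not called and smaller there with a called interaction.

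**Figure D4:**
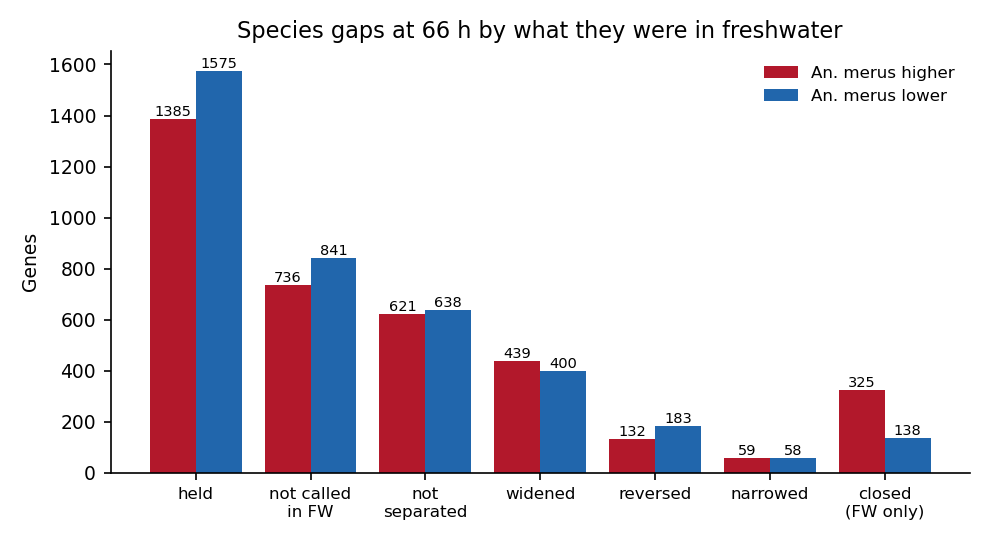
Number of genes (vertical axis) in each class of species gap at 66 h, by direction in An. merus (red higher, blue lower; for closed gaps, the direction in FW). The bars show 1385 and 1575 genes with held gaps, 736 and 841 not called in FW with a called interaction, 621 and 638 not separated, 439 and 400 widened, 132 and 183 reversed, 59 and 58 narrowed, and 325 and 138 closed.

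The 1577 gaps absent from FW, 15% of the genes tested, ran in both directions. In SW 736 (7.01% of genes tested) were higher and 841 (8.01%) lower in An. merus. The median gap of the higher genes was 0.93 in SW and 0.05 in FW, and that of the lower genes -0.78 and 0.02. Of the 1577, 554 were at least 2-fold apart in SW, 326 higher and 228 lower. In 1455 the SW libraries of the species did not overlap, beside 6214 of all 7067 gaps called in SW and 62.1% of all genes. The class was chosen by a call on these same libraries, so a share above that of all genes follows from the choice. A missed call does not show that a gap is 0, so the 95% interval of the gap in FW was read as well. It lay within 2-fold either way for 1540 of the 1577 genes and for 524 of the 554. The same held for 7497 of all 10505 genes, and for 1127 of the 1259 that were not placed in SW alone. For genes of the class absent from FW that were less than 2-fold apart in SW, this bound is too wide to decide. By itself it does not exclude a gap in FW as large as theirs in SW. For these genes a smaller gap in FW rests on the called interaction, by which the class was chosen. With every library at the same sum the class held 1941 genes, 22.4% of them higher in An. merus against 46.7% with the authors' scaling, and 996 were shared with the 1577. With quantile normalisation it held 1144, of which 929 were shared.

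The 2 highest of these gaps were those of AGAP004581 and AGAP004583. AGAP004581 stood at 124, 123, 140 and 73.2 CPM in the An. merus SW libraries and at 2.04, 4.89, 4.08 and 1.22 CPM in those of An. coluzzii. In FW all 8 libraries lay between 0.253 and 1.35 CPM and the species overlapped. The gap was 4.90 ± 0.30 in SW (limma adjusted p = 3.8e-14) and 0.13 ± 0.30 in FW (95% interval -0.49 to 0.74). The gene rose from FW to SW in both species, by 5.98 ± 0.30 in An. merus and by 1.21 ± 0.30 in An. coluzzii (limma adjusted p = 0.026), so the gap is one between a large and a smaller rise. AGAP004583 stood at 78, 79.7, 88.8 and 52.3 CPM in An. merus and at 0.742, 1.94, 2.55 and 1.32 CPM in An. coluzzii in SW, and between 0.0915 and 0.773 CPM in the FW libraries of both. Its gap was 4.87 ± 0.22 in SW and 0.07 ± 0.22 in FW, and its change in An. coluzzii, 0.79 ± 0.22, just missed the threshold (adjusted p = 0.051). Over the 8 highest gaps of this class, those in SW ran from 3.02 to 4.90 and those in FW from -0.51 to 0.30.

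The 2 lowest gaps of the class differ in how firmly FW is shown to lack them. AGAP010928 stood at 7.61, 7.27, 8.32 and 6.39 CPM in An. coluzzii in SW and at 0, 0.331, 0.333 and 0.545 CPM in An. merus, 8 reads in all. In FW it stood at 4.69 to 7.59 CPM in An. coluzzii and 4.03 to 5.03 CPM in An. merus, where the species overlapped. Its gap was -2.70 ± 0.17 in SW (limma adjusted p = 3.9e-14) and -0.34 ± 0.17 in FW (adjusted p = 0.093), with an interaction of -2.36 ± 0.24 (adjusted p = 2.1e-08). The 95% interval of its FW gap, -0.68 to 0.0051, lay within 2-fold but barely reached 0. AGAP011919 was lower still, at 12.7, 21.8, 24 and 18 CPM in An. merus against 215, 99.3, 163 and 208 CPM in An. coluzzii in SW, a gap of -3.07 ± 0.54. In FW, however, it stood at 49, 88.2, 92.3 and 86.2 CPM in An. merus and at 149, 161, 231 and 106 CPM in An. coluzzii, so the libraries did not overlap there either. The FW gap of -1.01 ± 0.54 was not called (adjusted p = 0.12), and its 95% interval ran from -2.12 to 0.10, which does not exclude more than 2-fold. Its interaction, -2.06 ± 0.76 (adjusted p = 0.039), was lost in 11 of the 16 fits that left out a library, with adjusted p from 0.0536 to 0.0772 and values from -2.08 to -1.88. Among those 16 fits it was kept only without An. coluzzii FW replicate 3 or SW replicate 2, or without An. merus FW replicate 1 or SW replicate 2 or 3. Quantile normalisation also lost it (-1.89, adjusted p = 0.084). The intervals are not adjusted for the number of genes, so a gene of the class can have an FW interval that leaves out 0. Among the 8 lowest gaps of the class this was so at -1.12 to -0.06 and at -0.92 to -0.01. Among the 8 highest it was so at -0.97 to -0.05, and the other intervals included 0.

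Within the class, the species whose level differed between waters was nearly always An. merus. The change from FW to SW in An. merus had a median of 0.97 for the 736 genes higher in An. merus and of -0.85 for the 841 lower. In An. coluzzii the medians were 0.10 and -0.06. The change was called in An. merus for 1542 of the 1577 genes and in An. coluzzii for 55, and for 26 genes in neither. Over all genes tested SW changed 6014 (57.2%) in An. merus and 235 (2.24%) in An. coluzzii. The responses use the same libraries as the gaps and the interaction that set the class, so these counts describe its make-up and are no further test of it.

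**Figure D5:**
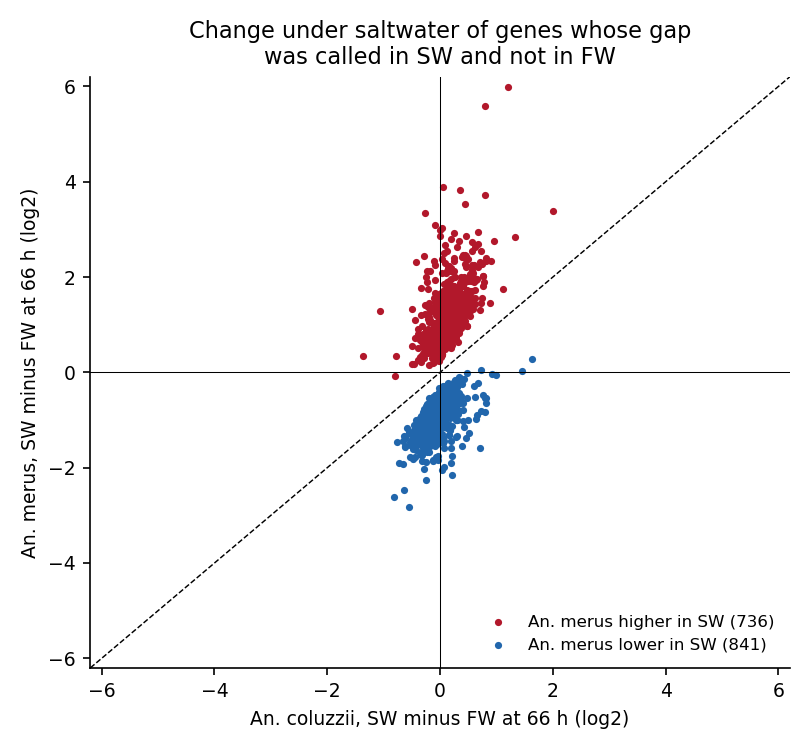
Change from FW to SW at 66 h (log2) in An. merus (vertical axis) and An. coluzzii (horizontal axis) of the 1577 genes whose gap was called in SW and not in FW with a called interaction. Red points are the 736 genes higher in An. merus in SW, blue points the 841 lower, and the dashed line marks equal changes. The points spread along the An. merus axis (medians 0.97 and -0.85) and stay near 0 on the An. coluzzii axis (medians 0.10 and -0.06).

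The held gaps were about as wide in both waters, with a median absolute gap of 0.88 in SW and 0.76 in FW. Choosing genes without a called interaction favours such a likeness. Of the 1575 held genes lower in An. merus, 857 (54.4%) were at least 2-fold apart in SW, and of the 1385 higher, 367 (26.5%) were. Over all gaps called in SW, which include the held genes, the shares were 42.6% of the lower and 32.2% of the higher. Narrowed gaps and those not separated leaned as the held ones did. So did widened gaps, at 90% of the lower and 70.4% of the higher. Gaps absent from FW leaned the other way, at 27.1% and 44.3%, as did reversed gaps, at 3.83% and 20.5%. The imbalance was thus not common to all SW gaps. The 839 widened gaps had a median absolute value of 1.35 in SW and 0.55 in FW, and the SW libraries of the species did not overlap for any of them. They too were chosen by calls on these libraries. In the 1259 genes of that remaining class, the median absolute gap was 0.56 in SW and 0.21 in FW.

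In 315 genes the species changed places between waters. All 315 had a called interaction, which called gaps of opposite sign in the same fit all but ensure. In SW 132 of them were higher in An. merus, with a median gap of 0.60 against -0.51 in FW, and 183 were lower, with a median of -0.50 against 0.45. Most of these gaps were small, and in SW 34 of the 315 reached 2-fold. AGAP013005 stood at 170, 316, 267 and 151 CPM in An. merus and at 75.5, 115, 112 and 108 CPM in An. coluzzii in SW. In FW it stood at 17.1 to 31.7 CPM in An. merus and 46.3 to 110 CPM in An. coluzzii. The species did not overlap in either water, and the gap was 1.09 ± 0.28 in SW (limma adjusted p = 0.0013) and -1.64 ± 0.28 in FW. AGAP003691 likewise stood at 22.9 to 48 CPM in An. merus and 11.5 to 18.4 CPM in An. coluzzii in SW, against 6.86 to 9.64 and 14 to 18 CPM in FW, with gaps of 1.31 ± 0.23 and -0.89 ± 0.23.

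AGAP008465 and AGAP001352 changed places the other way. AGAP008465 stood at 285, 290, 307 and 283 CPM in An. merus and at 631, 668, 670 and 343 CPM in An. coluzzii in SW, where replicate 4 of An. coluzzii lay nearest to An. merus without overlapping it. In FW An. merus was the higher species, at 1050 to 1604 CPM against 618 to 770 CPM. The gaps were -0.94 ± 0.18 in SW (limma adjusted p = 4.3e-05) and 1.0 ± 0.18 in FW, with a change of -2.21 ± 0.18 in An. merus. AGAP001352 is a low gene, at 0.726 to 3.22 CPM in An. merus and 4.51 to 6.29 CPM in An. coluzzii in SW, with gaps of -1.11 ± 0.37 in SW and 1.05 ± 0.37 in FW. Its gap in SW was not called without An. merus SW replicate 4 (-0.85, adjusted p = 0.052).

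Of the 463 closed gaps, An. merus had been higher in FW in 325 and lower in 138. Their median gaps were 0.62 and -0.69 in FW, and -0.08 and 0.05 in SW. AGAP005951 stood at 1496, 1154, 1009 and 2443 CPM in An. merus and 248, 281, 123 and 194 CPM in An. coluzzii in FW. In SW it stood at 337, 426, 495 and 371 CPM and at 239, 421, 291 and 230 CPM, where the species overlapped. The gap was 2.82 ± 0.28 in FW and 0.49 ± 0.28 in SW (limma adjusted p = 0.12), with an interaction of -2.33 ± 0.40 (adjusted p = 6.5e-05). It reached the threshold in SW without An. coluzzii SW replicate 2 (0.68, adjusted p = 0.045) and in a fit of the 8 SW libraries alone (adjusted p = 0.045), so the gap is shown to be smaller in SW but not to be 0. AGAP007262 and AGAP004976 went the other way. AGAP007262 stood at 0.193 to 0.75 CPM in An. merus and 5.03 to 13.1 CPM in An. coluzzii in FW, a gap of -2.76 ± 0.45, and at 3.27 to 9.09 and 6.08 to 20.6 CPM in SW, a gap of -0.95 ± 0.45 (adjusted p = 0.062). AGAP004976 had gaps of -3.26 ± 0.57 in FW and -1.10 ± 0.57 in SW, and although the latter was not called (adjusted p = 0.092) its SW libraries, at 2.32 to 5.53 CPM in An. merus and 6.77 to 13.9 CPM in An. coluzzii, did not overlap. Its interaction (adjusted p = 0.044) was lost in 10 of the 16 fits that left out a library (adjusted p from 0.053 to 0.0967), and kept only without An. coluzzii FW replicate 3 or 4 or SW replicate 4, or without An. merus FW replicate 2 or SW replicate 2 or 3. It was also lost with a pseudocount of 0.5 (adjusted p = 0.061), with every library at the same sum (0.082), with edgeR (0.084) and with DESeq2 (0.12). The gap of AGAP004976 in SW was called with every library at the same sum (-1.42, adjusted p = 0.039), in the fit of the 66 h libraries (0.049) and in that of the 8 SW libraries (0.0022). The interaction of AGAP007262 (adjusted p = 0.028) was lost in 5 of the 16 (adjusted p from 0.0518 to 0.0726), those without An. coluzzii FW replicate 1 or SW replicate 1 or 4 and without An. merus SW replicate 2 or 3. It was also lost with a pseudocount of 4 (0.80, adjusted p = 0.18) and with every library at the same sum (1.45, adjusted p = 0.079). Its gap in SW was called without An. coluzzii SW replicate 4 (-1.25, adjusted p = 0.021) and without An. merus SW replicate 3 (-1.14, adjusted p = 0.041). It was also called with a pseudocount of 4 (adjusted p = 0.044), with every library at the same sum (0.013), with edgeR (0.041), with DESeq2 (0.049) and in the fit of the 66 h libraries (0.023). For both genes a closed gap thus depends on the setting.

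The same comparison was made in larvae exposed from 18 h after hatching. The gaps that define the classes are means of 66 h libraries only, but the 18 h libraries enter the pooled spread and the filter on level, so the ages are not fully independent. In a fit of the 16 libraries of 66 h alone, 1542 gaps were absent from FW, and 1397 of these were among the 1577. In SW at 18 h 6332 genes (60.3%) were called between the species. Across genes the gaps in SW at the 2 ages were correlated (Pearson r = 0.77, Spearman rho = 0.79), and 81.6% had the same sign. Of the 1577 gaps absent from FW at 66 h, 1063 (67.4%) were called in the same direction in SW at 18 h, 27 in the opposite direction and 487 not at all. The same-direction share was 70% over all 7067 gaps in SW, 76% for held gaps, 95.1% for widened gaps, 46% for reversed gaps and 55.6% over all genes tested. The share for the gaps absent from FW is thus close to that of SW gaps in general, but it differed by direction. For the genes higher in An. merus it was 76.5%, beside 74.1% of all higher SW gaps. For the lower genes it was 59.5%, beside 66.2% of all lower SW gaps.

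The absence from FW was read at 18 h in the same way, from 4915 genes (46.8%) called between the species in FW and 2201 (21%) with a called interaction of species and water. Of the 1577 genes, 461 (29.2%) also had, at 18 h, a gap of the same sign in SW that was absent from FW, a class that held 1078 genes (10.3%) at that age. It was 278 of 736 (37.8%) for the genes higher in An. merus and 183 of 841 (21.8%) for the lower. AGAP004581 and AGAP004583 were among them, with gaps in SW at 18 h of 4.70 ± 0.30 and 4.38 ± 0.22 and in FW of 0.45 ± 0.30 and 0.43 ± 0.22. AGAP010928 was not, since at 18 h its gap was called in FW as well (-1.0 ± 0.17, limma adjusted p = 1.5e-05, against -2.58 ± 0.17 in SW). The test of the difference in gap between ages in SW was called for 1960 genes (18.7%). It was called for 431 of the 1577, and in 384 of these the gap was larger at 66 h. Over all 7067 genes with a gap called in SW at 66 h, it was called for 1544, and in 1293 of these the gap was larger at 66 h, a direction that choosing genes by a call at 66 h favours.

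Age also set the size of several of the widest gaps. AGAP007227 stood at 227 ± 31 CPM in An. coluzzii in SW at 66 h and at 10.8 ± 10.9 CPM at 18 h (mean ± SD, n = 4), and its gap in SW differed between ages by -4.24 ± 0.77 (limma adjusted p = 0.00037). AGAP002360 stood at 724 ± 103 CPM in An. merus in SW at 66 h and at 241 ± 59.1 CPM at 18 h, a difference in gap of 2.44 ± 0.42. In AGAP013005 the sign of the gap in SW itself changed with age, from -1.25 ± 0.28 at 18 h to 1.09 ± 0.28 at 66 h, both called. AGAP003691 did the same, from -0.58 ± 0.23 (limma adjusted p = 0.028) to 1.31 ± 0.23.

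Some genes had next to no reads in one species. In SW 29 genes had at most 3 reads over the 4 An. merus libraries and at least 5 CPM on average in An. coluzzii, and 13 of these had no read in An. merus. The opposite, at most 3 reads in An. coluzzii and at least 5 CPM in An. merus, held for 3 genes. AGAP007236 had 0 reads in An. merus in SW and a mean of 59.3 CPM in An. coluzzii. A count of 0 allows up to 3 reads over the group, or 0.109 CPM, so the gene was at least 542-fold lower in An. merus. This covers counting error only, and how well An. merus reads align to such genes was not tested. Of the 29 genes, 15 met the same limits in FW, and 19 had at most 3 reads in An. merus there. In the opposite set, AGAP002894 had a mean of 35.9 CPM in An. merus in SW and 14 CPM in FW, with 1 and 3 reads in An. coluzzii, and its gap of 5.16 ± 0.18 in SW was widened from 3.76 in FW. AGAP012539 stood at 5 CPM in An. merus in SW and had no read in An. merus in FW, although in An. coluzzii it had 1 read in SW and 4 in FW. It was below the level needed for testing, and both genes were picked out after their values were seen.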

How the data were processed

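Messenger RNA of whole larvae was measured in 32 libraries, 4 for each of 8 groups of species, age and water, read from the sample titles. The deposited table holds a signal per gene, which the authors call CPM with TMM scaling (trimmed means of M values), for 11025 identifiers shared by both species. The tools were edgeR, HTSeq, TopHat2, Bowtie2 and Trimmomatic, per the submitters' processing notes, which give no role or version. The genome build, the annotation and the rule that filtered the table are not given in the sources used here, and how readily reads of each species align was not tested. Per the labels' protocols, libraries were selected for polyA with a kit that does not mark strand, so reads of genes that overlap on opposite strands are not distinguished. Reads shared by near-identical genes were not examined.

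The test had been planned for CPM and was applied unchanged to this signal. In R 4.3.3, limma 3.58.1 (trend, robust) fitted 8 group means to log2(CPM + 1) of all 32 libraries, with 24 residual degrees of freedom. Two-sided p-values were adjusted by Benjamini-Hochberg in each of 9 comparisons, over the 10505 genes whose mean reached 1 CPM. Folds understate changes of low genes. The species difference in FW and the interaction at 18 h were added after the design was set. Dividing each library by its smallest step gave whole reads for 100% of values within 0.01 reads. The reads gave depths, which cover counting error only, and fed edgeR 4.0.16 and DESeq2 1.42.0 as alternatives, on 31 libraries: An. merus FW replicate 1 at 18 h was left out of these, because its value of 1 read, 0.0993 CPM, lies near a round decimal step. Pairs of libraries of a 66 h group differed by 5.75 to 50.3 times the noise of sampling reads (a chi-square over its degrees of freedom), so none was taken as the same library deposited again.

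Named genes were called and had at least 5 CPM in the higher group and, for gaps in SW, no overlap of the SW libraries. They were the 8 highest and 8 lowest gaps in SW, the 8 highest and 8 lowest of those absent from FW, the 4 reversed gaps whose smaller side was largest, and the 4 closed gaps that were widest in FW. Of the genes taken by each part of this rule, at most 2 per direction were printed, since the 0 matched names left all 39 gene lists empty. Genes with next to no reads in 1 species, the most abundant gene and those of the closing observations were printed beside these. The comparison, classes and lists were chosen with earlier results of these data known. Figures were drawn with matplotlib 3.10.9.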

Additional observations from a re-analysis of the deposited data

Results flagged for a closer look

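In 3 of the 64 groups of 4 libraries examined for the named genes, 1 library lay far from the rest; chance gives about 1 in 20. AGAP002360 stood at 569 CPM in An. merus SW replicate 4, against 764 to 785 CPM in the others. AGAP011919 stood at 49.0 CPM in An. merus FW replicate 1, against 86.2 to 92.3 CPM. AGAP008465 stood at 343 CPM in An. coluzzii SW replicate 4, against 631 to 670 CPM.

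The gap in SW differed from that in FW, by the limma interaction test, for 12 of the 16 genes. For all but AGAP002360 this follows from the classes from which they were named, in which every gene has a called interaction, so the values are descriptions. The difference was 1.46 for AGAP002360, 4.78 for AGAP004581, 4.79 for AGAP004583, -2.06 for AGAP011919 and -2.36 for AGAP010928. Among reversed gaps it was 2.73 for AGAP013005, 2.19 for AGAP003691, -2.16 for AGAP001352 and -1.93 for AGAP008465. Among closed gaps it was -2.33 for AGAP005951, 2.15 for AGAP004976 and 1.81 for AGAP007262.

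The gap in SW at 66 h differed from that at 18 h for 7 of the 16 genes. The difference was 2.44 for AGAP002360, 1.08 for AGAP010613, -4.24 for AGAP007227, -3.28 for AGAP007229, -2.71 for AGAP011919, 2.33 for AGAP013005 and 1.89 for AGAP003691.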

How the results depend on the processing

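Asking for at least 2-fold as well as an adjusted p below 0.05 left 2658 of 7067 gaps in SW, 1339 of 5360 in FW and 987 of 3368 interactions. It gave 591 gaps absent from FW, 8 reversed and 73 closed, beside 1577, 315 and 463. Under that rule a gap in FW below 2-fold counts as absent even where its adjusted p is below 0.05. Likewise a gap in SW below 2-fold can count as closed, so the 591 and the 73 are not subsets under a stricter limit. The other settings left these 6 counts within 1.5 times, among them another pseudocount or filter, edgeR (7029 gaps in SW, 1567 absent from FW), DESeq2 (7046 and 1568), thinning all 66 h libraries to 4207326 reads (6760 and 1517) and a fit on each comparison's own libraries (7283 and 1673). Leaving out each library in turn gave 6718 to 7094 gaps in SW, 4911 to 5403 in FW, 3096 to 3332 interactions, 1442 to 1699 absent from FW, 262 to 306 reversed and 403 to 491 closed. The interval criterion and the classes at 18 h were added after seeing the data. Of 727 alternatives for the 27 values of the 16 named genes examined, 680 kept direction and call, 35 lost the call, 12 gained it and 0 reversed. A gap in SW keeps its value when an FW library is left out. Every value stays the same under another filter or in a fit on fewer groups. Such settings can change only the adjusted p, so part of the 680 and of the 0 reversed was fixed in advance. No paired analysis was possible because library numbers do not repeat between groups. For genes near 0 reads in a species, depth limits how wide a gap can be shown to be.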

Other observations

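Some genes with wide gaps in SW had identifiers that follow each other in the table, which was noticed in the values. Of the 1573 genes at least 2-fold lower in An. merus, 21% were followed by another of the set, which itself is 15% of genes tested, and the longest run was 10 identifiers. Of the 1085 at least 2-fold higher, 16% were followed by another, beside 10.3% of genes tested, with a longest run of 6. For the gaps absent from FW the values were closer, at 9.78% beside 7.01% for the higher genes and 9.27% beside 8.01% for the lower, with runs of at most 4 and 3. These shares carry no test, and the positions of the genes were not used here.

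In one such place the gaps of consecutive identifiers ran in opposite directions. AGAP010613 averaged 144 CPM in An. merus and 0.521 CPM in An. coluzzii in SW. AGAP010614 and AGAP010615 averaged 18.1 and 26.8 CPM in An. coluzzii and had 2 and 0 reads in An. merus. All 3 gaps were present in FW as well, at 6.03, -4.45 and -4.68. Whether these genes share sequence, so that reads of a species were assigned to one of them, was not tested.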
